A study of Homo sapiens with 24 samples.

Results

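Narrow H3K4me3 regions are stretches of the genome under 2500 bp wide that carry the histone mark of active and poised promoters without much of the heterochromatin mark H3K9me3. They were selected on measured values and on width. A region entered when its H3K4me3 CPM (the count divided by the library total, times 1000000), averaged over the 3 control libraries, reached 10 while its H3K9me3 CPM, averaged the same way, stayed under 10. The rule found 6656 of the 153244 regions of the series. A further 7209 regions met both CPM limits and were 2500 bp or wider, and these served as the comparison set.

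The cells were cardiomyocytes of ventricular type, grown from H9, a line of human embryonic stem cells, and taken at day 15 of differentiation. CUT&Tag, in which an antibody tethers the Tn5 transposase to a histone mark so that nearby DNA is tagged for sequencing, was done for H3K4me3, H3K27ac, H3K4me1 and H3K9me3. For each mark there were 3 control libraries and 3 libraries of cells with ZNF436 knockdown (ZNF436 encodes a KRAB zinc finger protein), 24 libraries in all. The sources used here give neither how the knockdown was made nor what the control cells carried, and H9 is a single line. Whether replicates were separate cultures is not on the labels. The p-values therefore set a difference against the scatter between these libraries, and that scatter may be technical.

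H3K4me3 is laid down around transcription start sites, most strongly over CpG-rich promoters, and its domains differ in breadth between genes. H3K27ac marks active promoters and enhancers, while H3K4me1 is enriched at enhancers and on the flanks of promoters, where it tends to be low under the H3K4me3 peak itself. H3K9me3 marks heterochromatin and repeats silenced through KRAB zinc finger proteins and their cofactors.

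Positions are given on hg19, the build named by the submitters, with the first and last base counted from 1. No annotation of that build was used, so no region was matched to a gene or a start site, and whether each region is a promoter was not tested. Markers of the labelled cell type and the locus of the targeted gene were for the same reason not checked here. All 24 libraries share one set of regions whose making the sources used here do not describe, so width is that of the deposited region and not a measured width of the H3K4me3 signal.

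Library totals were deepest for H3K4me3, at 11023905 to 13933927 counts, then H3K4me1 (3920283 to 4936265), H3K27ac (2955710 to 3681687) and H3K9me3 (2103185 to 2880412). The median narrow region held 384 to 495 counts per library for H3K4me3, 26 to 32 for H3K27ac, 18 to 25 for H3K4me1 and 2 to 4 for H3K9me3. Precision was therefore highest for H3K4me3, and H3K9me3 was measured in a handful of counts per region. Between replicates of one group the counts over narrow regions varied more than counting alone allows, with chi-square per degree of freedom from 2.57 to 8.15.

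The values that chose the members are given here as a description. Width had a median of 1970 bp and a range of 43 to 2499 bp. Of the 6656 regions, 3133 were 2000 bp or wider, 2526 were from 1500 to under 2000 bp, 927 were from 1000 to under 1500 bp, and 70 were under 1000 bp. Control H3K4me3 had a median of 35.5 CPM and ran from the floor of the rule to 191 CPM, and control H3K9me3 had a median of 1.38 CPM. H3K4me3 was higher in wider members: its median was 11.9 CPM under 1000 bp, 14.8 CPM from 1000 to under 1500 bp, 30 CPM from 1500 to under 2000 bp and 50.4 CPM above that. The gradient was not one of length alone, since per kilobase the median still went from 11.5 CPM in the bin from 1000 bp to 22.5 CPM in the bin from 2000 bp, although the 70 shortest regions stood at 13.7 CPM per kb.

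**Figure D1:**
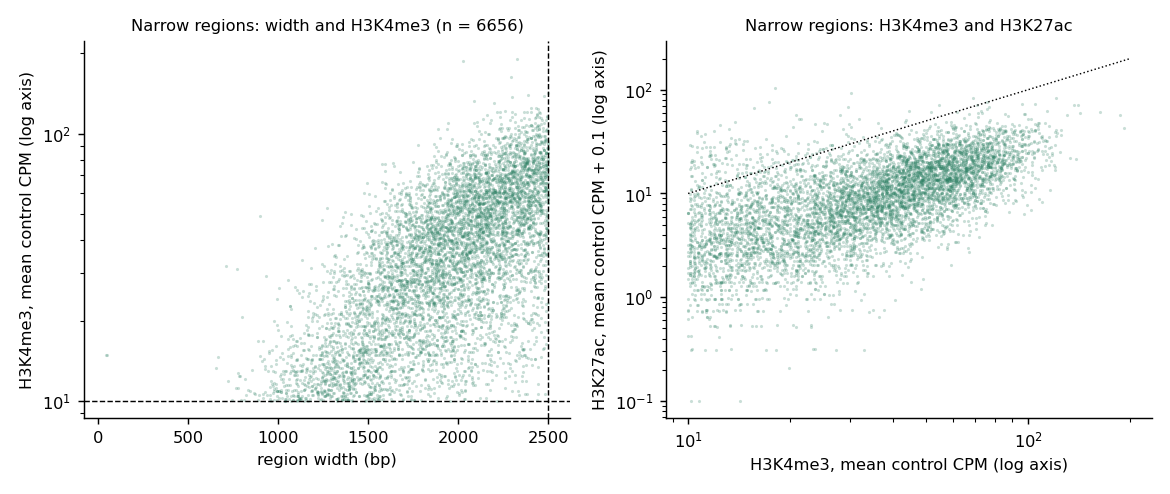
Left, width in bp (x) against mean control H3K4me3 in CPM (y, log axis) for the 6656 narrow regions, 1 point each, with dashed lines at the limits of 2500 bp and 10 CPM. Right, mean control H3K4me3 (x, log axis) against mean control H3K27ac plus 0.1 CPM (y, log axis), where the dotted line marks equal CPM and 197 regions lie above it before the 0.1 is added.

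The limits cut through a continuum. At 2499 bp, just inside the width limit, chr8:41434742-41437240 had 75.7 CPM of control H3K4me3 and chrX:51237905-51240403 had 32.4 CPM. At 2500 bp, just outside it, chr13:100152605-100155104 had 90.2 CPM and chr15:41244461-41246960 had 41.0 CPM. The pair nearest the H3K4me3 limit on either side all equalled the limit of 10 CPM when rounded to 2 decimals: chr13:36871455-36872781 and chr9:101705701-101707111 inside, chr15:58723730-58725968 and chr15:78236159-78237533 outside. For H3K9me3 the innermost members were chr8:67873406-67875437 at 9.96 CPM and chr19:37861363-37862949 at 9.98 CPM, next to chr2:133104203-133105989 at 10.08 CPM and chr4:111331735-111333300 at 10.15 CPM outside.

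The knockdown libraries took no part in the choice of members. In their mean, 6438 of the 6656 regions (96.7%) again had 10 CPM or more of H3K4me3, and 20 had 10 CPM or more of H3K9me3. Their median H3K4me3 was 35.1 CPM with a range of 3.55 to 182 CPM. The same regions thus carried H3K4me3 in both groups of cells.

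The strongest members reached far above the median. chr3:195715624-195717947 held 190, 193 and 200 normalised CPM (CPM over the tested regions, scaled by the TMM factors of edgeR) in the 3 control libraries and 187, 185 and 185 in the knockdown libraries. chr2:739507-741529 held 199, 186 and 185 in control and 164, 169 and 159 in knockdown, and its fold change did not pass the test (log2 -0.21, SE 0.06, adjusted p = 0.162). The control libraries of both regions lay above the knockdown libraries, but these differences were small beside the levels. The next strongest were chr2:114340711-114343000 with 160, 174 and 164 in control, chr4:6783670-6786167 with 137, 148 and 147, and chr7:12249787-12252172 with 138, 136 and 151.

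By density the top places went to 2 very short regions. chr11:11778775-11778817 is 43 bp wide and chr15:41718876-41718926 is 51 bp wide, and these 2 ranked first in CPM per kb of H3K4me3, H3K27ac and H3K4me1. chr11:11778775-11778817 had 16, 15.5 and 13.8 normalised CPM of H3K4me3 in control and 7.93, 6.24 and 9.18 of H3K27ac. chr15:41718876-41718926 had 16, 15.0 and 14.1 of H3K4me3 and also 6.71, 14.0 and 4.33 of H3K9me3, the mark that is otherwise low across the members. Their H3K4me3 CPM lies below the member median of 35.5 CPM, so the rank comes from dividing by so short a width, and whether such short regions hold genuine signal was not tested. Among members of ordinary width, chr2:739507-741529 came next in H3K4me3 density.

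H3K27ac was present over most members at a moderate level. Its control median was 9.26 CPM, with a range of 0 to 103 CPM, and 3110 members (46.7%) had 10 CPM or more, against 6397 of the 7209 wide regions (88.7%). Wide regions had a median width of 3310 bp against 1970 bp, which raises their CPM by length, and per kilobase the medians were 4.93 CPM over narrow and 8.46 CPM over wide regions. At the low end 132 members (1.98%) had under 1 CPM in control, and 38 were under 1 CPM in both groups. H3K27ac exceeded H3K4me3 in control CPM at 197 members (2.96%), against 558 wide regions (7.74%). The member densest in H3K27ac above 51 bp was chr19:13956987-13959024, with 119, 112 and 112 normalised CPM in control and 121, 99.3 and 117 in knockdown. Its H3K4me3 was low, at 20.5, 20.8 and 13.5 in control.

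H3K4me1 was scarce over narrow regions. Its control median was 4.62 CPM and 593 members (8.91%) had 10 CPM or more, against 4313 wide regions (59.8%). Per kilobase the medians were closer, at 2.4 CPM over narrow and 3.53 CPM over wide regions. Only at 120 members (1.80%) did H3K4me1 exceed H3K4me3 in control CPM, against 487 wide regions (6.76%). The ratio of H3K4me1 to H3K4me3 was highest at chr2:64875936-64878294, which had 64, 76.0 and 80.3 normalised CPM of H3K4me1 in control beside 20.7, 15.7 and 11.2 of H3K4me3. That region also carried 82.4, 74.2 and 66.8 of H3K27ac. chr11:64525997-64528439 followed, with 50.2, 49.6 and 33.0 of H3K4me1 and 9.49, 9.34 and 13.4 of H3K4me3, and then chr22:37583356-37585736, with 35.1, 42.8 and 24.7 of H3K4me1 and 14.4, 11.2 and 6.70 of H3K4me3. In these 3 regions every control library had more H3K4me1 than H3K4me3 on this scale, and totals differ between marks, so the scale compares shares of a library and not amounts of a mark.

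Across members, H3K27ac followed H3K4me3 and H3K4me1 did not. Spearman's rho of control CPM per kb over the 6656 regions was 0.54 between H3K4me3 and H3K27ac, -0.20 between H3K4me3 and H3K4me1, and 0.098 between H3K27ac and H3K4me1. The points share libraries and width, H3K4me3 was cut at 10 CPM, and the values are a description. Over the wide regions the same 3 values were 0.38, -0.48 and 0.060. Split into 4 equal sets of 1664 regions by control H3K4me3 per kb, from the lowest set to the highest the members had median control H3K27ac of 2.42, 3.78, 5.64 and 8.46 CPM per kb. Median H3K4me1 was 3.09 CPM per kb in the lowest set and then 2.32, 2.27 and 2.23. The knockdown libraries showed the same order for H3K27ac, with 2.24, 3.56, 5.46 and 8.57, whereas H3K4me1 stood at 3.36 in the lowest set and at 2.62, 2.59 and 2.61 in the others.

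Set against wide regions, narrow regions were less dense in both H3K27ac and H3K4me1, 2 marks the CPM limits did not use. The medians per library are medians of log2 CPM per kb, with 0.05 added to each CPM. For H3K27ac the control libraries stood at 2.38, 2.29 and 2.16 over narrow and 3.20, 2.97 and 3.03 over wide regions. The knockdown libraries stood at 2.29, 2.23 and 2.20 over narrow and 3.16, 3.08 and 3.05 over wide regions. Narrow regions were lower in 6 of 6 libraries, by a mean log2 difference of -0.82 ± 0.07 (SD, n = 6), a ratio of 0.565.

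For H3K4me1 the control libraries stood at 1.24, 1.31 and 1.24 over narrow and 1.81, 1.84 and 1.82 over wide regions, and the knockdown libraries at 1.55, 1.39 and 1.43 over narrow and 1.98, 1.90 and 1.94 over wide regions. The difference was -0.52 ± 0.05 (SD, n = 6), a ratio of 0.697, again lower in 6 of 6 libraries. The exact two-sided sign-flip permutation test over the 6 libraries gave p = 0.03125 for each mark, the smallest it can give, and the same value after adjustment over 4 such tests. Libraries of the same mark share the regions, and whether the region boundaries were drawn with H3K27ac or H3K4me1 is not given, so their part in this difference was not tested. H3K4me3 itself, which chose the regions, differed by -0.47 and H3K9me3 by 0.09, given as a description.

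**Figure D2:**
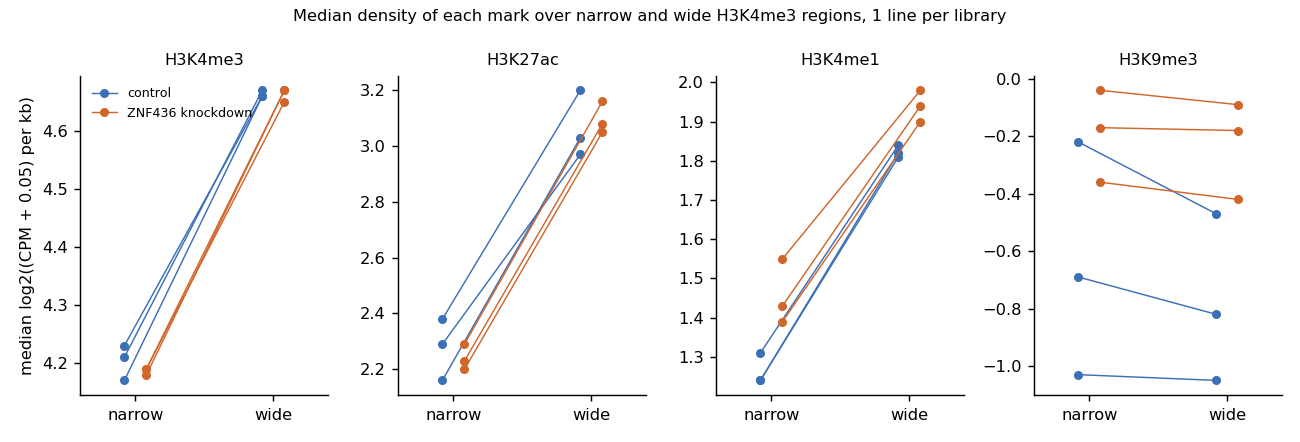
Median log2 of CPM plus 0.05 per kb (y, a separate scale in each panel) over the 6656 narrow and 7209 wide regions (x) for each mark, 1 line per library, blue for control and orange for ZNF436 knockdown. Lines for H3K27ac and H3K4me1 rise from narrow to wide in 6 of 6 libraries.

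Within bins of H3K4me3 density the gap was also present, and it was smaller in the denser bins. H3K4me3 was not matched inside a bin and is a mark the rule used. This comparison was chosen after the data had been seen and is a description. Among regions with 5 to under 10 CPM per kb of control H3K4me3 (1049 narrow, 535 wide), median control H3K27ac was 2.29 CPM per kb over narrow and 6.06 over wide regions, a mean log2 difference over the 6 libraries of -1.35 ± 0.14. From 10 to under 20 (2631 narrow, 1644 wide) the difference was -0.67 ± 0.09, from 20 to under 40 (2745 narrow, 4088 wide) it was -0.36 ± 0.04, and from 40 to under 80 (212 narrow, 723 wide) it was -0.23 ± 0.05. For H3K4me1 the differences in the same order were -0.93 ± 0.08, -0.92 ± 0.09, -0.43 ± 0.05 and -0.25 ± 0.08. In each bin and for both marks narrow regions were lower in 6 of 6 libraries.

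**Figure D3:**
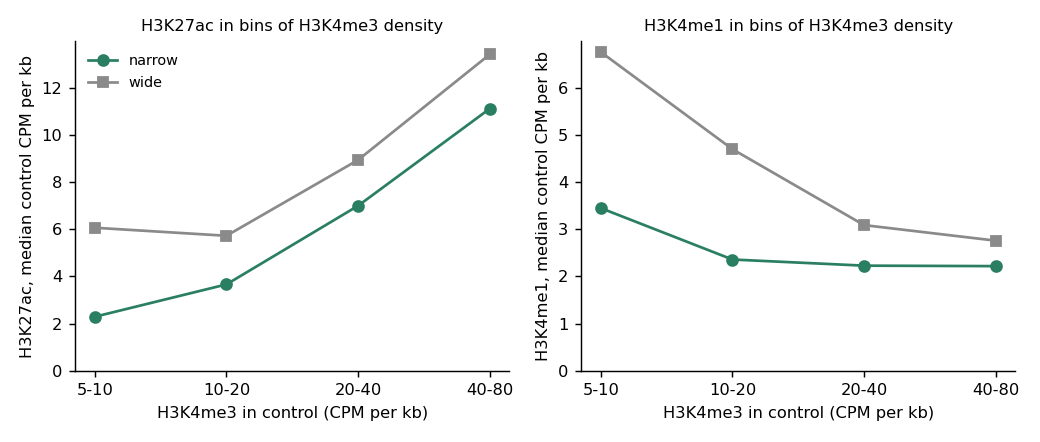
Median control CPM per kb of H3K27ac (left) and H3K4me1 (right) in 4 bins of control H3K4me3 density (x, CPM per kb), circles for narrow and squares for wide regions. Narrow regions lie below wide ones in each bin, from 2.29 against 6.06 for H3K27ac in the lowest bin to 11.1 against 13.4 in the highest.

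Most narrow regions stood alone. Another region with 10 CPM or more of control H3K4me3 lay within 1 kb of 156 members (2.34%), within 5 kb of 721 (10.8%) and within 10 kb of 1327 (19.9%). The wide regions had such a neighbour within 5 kb in 10.8% and within 10 kb in 18.7%. A wide region lay within 5 kb of 316 members, and 5935 had no other H3K4me3 region that near.

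Members beside a wide region carried more H3K4me1 and H3K27ac than members alone. Median control H3K4me1 was 3.29 CPM per kb beside a wide region and 2.35 alone, and H3K27ac was 5.87 and 4.89. Per library the log2 difference was 0.47 ± 0.07 (SD, n = 6) for H3K4me1, with a range of 0.38 to 0.56, and 0.28 ± 0.11 for H3K27ac, with a range of 0.14 to 0.42. Both were above 0 in 6 of 6 libraries (exact sign-flip permutation test, two-sided, p = 0.03125, also after adjustment over 4 tests). H3K4me3 went the other way, at 15.5 CPM per kb beside a wide region and 18.7 alone, and the widths were alike, with medians of 1984 and 1970 bp. The 6 libraries of a mark share these regions, so the p measures repeatability over libraries and not the spread between regions. This contrast was chosen after the data had been seen and is a description.

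Some members lay close together, about as often as wide regions did. Another narrow region lay within 10 kb of 11.4% of members, and another wide region within 10 kb of 11.3% of wide regions. Linked at gaps of up to 10 kb, 135 members formed 41 groups of 3 or more. The 2 largest held 5 members each, at chr19:41103014-41121263 and chr19:45926223-45955315, and 8 groups of 4 followed, the first of them at chr1:16532555-16564059. In the first group control H3K4me3 ran from 12.0 to 46.3 CPM and knockdown H3K4me3 from 13.9 to 53.1 CPM, and in the second from 11.5 to 50.3 and from 14.9 to 52.8 CPM. No member of these 3 groups that could be tested was called between knockdown and control in H3K4me3, H3K27ac or H3K4me1, and none had enough H3K9me3 counts to be tested. Over the chromosomes, narrow regions made up 48.0% of narrow and wide regions together. Leaving out chromosome Y, which holds 1 narrow region, their share was highest on chromosome X, at 65.4% (255 narrow, 135 wide), and on chromosome 19, at 57.8% (565 narrow, 413 wide), and lowest on chromosomes 18, at 41.3%, and 11, at 42.2%. One line of cells gives no replicate of these shares.

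Between ZNF436 knockdown and control, few narrow regions differed in H3K4me3. A region is called here when its p from edgeR's quasi-likelihood test, adjusted by Benjamini-Hochberg over all tested regions of the mark, was under 0.05. All 6656 members were tested: 15 rose (0.225%, against a background of 0.374% of 26773 tested regions) and 7 fell (0.105%, against a background of 0.187%). Members were thus called no more often than tested regions at large. At an unadjusted p under 0.05 there were 343 higher members (5.15%, background 5.26%) and 339 lower members (5.09%, background 4.93%). Counts of regions whose groups did not overlap are set against wide regions only, here and for the other marks. Their share over all tested regions is not given. The knockdown and control libraries did not overlap at 567 members on the higher side (8.52%, wide regions 8.81%). On the lower side they did not overlap at 572 (8.59%, wide regions 8.42%). The control side of this contrast chose the members, so these counts are a description. Choosing on a high control value lowers the fold changes of members near the floor.

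The counts turned on single libraries. Without the third control library 95 members were higher and 60 lower, and without the third knockdown library 3 were higher and 1 was lower. Without the first knockdown library the counts were 7 and 1, and without the second 12 and 1. Leaving out the first control library gave 10 and 0, and leaving out the second control library 21 and 13. Of the 15 higher members 3 were called in all 6 of these fits and 4 more in 5, and of the 7 lower members none was called in more than 3. DESeq2 called each of the 22, limma-voom called the 15 higher and 2 of the 7 lower.

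The member with the smallest p was chr1:28198573-28200243. Its H3K4me3 was 14.1, 11.5 and 9.28 normalised CPM in control and 32.0, 34.6 and 36.6 in knockdown, so that every knockdown library lay above every control library (log2 fold change 1.57, SE 0.17, adjusted p = 0.000260). H3K27ac did not go with it: control libraries had 2.76, 5.87 and 4.77 and knockdown libraries 2.38, 4.55 and 1.23. This region kept its call in all 6 fits without a library, with adjusted p from 2.94e-05 to 0.00994.

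The other 2 higher members called in all 6 such fits lay on chromosome 19. At chr19:3274937-3276852 H3K4me3 was 15.5, 15.5 and 19.2 in control and 31.7, 40.6 and 37.8 in knockdown (log2 fold change 1.14, SE 0.15, adjusted p = 0.00137). At chr19:17437983-17440075 it was 15.5, 11.7 and 14.8 in control and 31.2, 30.3 and 30.4 in knockdown (log2 fold change 1.13, SE 0.16, adjusted p = 0.00193). The groups did not overlap at either region. H3K27ac was also apart at both: 7.93, 8.81 and 8.08 against 16, 12.5 and 13.3 at the first, and 6.20, 2.94 and 9.54 against 17.3, 15.2 and 17.0 at the second, but neither passed the test (adjusted p = 0.607 and 0.303).

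chr8:12457691-12459460 had the largest accompanying difference in H3K27ac. Its H3K4me3 was 19.7, 20.9 and 28.4 in control and 43.2, 43.7 and 46.9 in knockdown (log2 fold change 0.96, SE 0.14, adjusted p = 0.00308). Its H3K27ac was 2.76, 2.94 and 1.47 in control and 21.4, 21.6 and 14.8 in knockdown, a log2 difference of 2.99 (SE 0.56) whose adjusted p of 0.0591 missed the threshold, though it passed under 6 of 13 alternatives, among them DESeq2 and the fits without the second or the third control library. H3K4me1 did not overlap between groups either, with 5.41, 2.44 and 7.79 against 14.8, 9.28 and 8.51 (log2 difference 1.05, adjusted p = 0.395). The H3K4me3 call was lost without the third knockdown library, at an adjusted p of 0.0691.

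The call at chr10:103534651-103536761, chr12:6808879-6810712 and chr6:34432959-34434961 was likewise lost without the third knockdown library, at adjusted p of 0.0744, 0.0925 and 0.118. chr10:103534651-103536761 had 10.3, 11.7 and 17.0 in control and 31.3, 27.4 and 36.6 in knockdown (log2 fold change 1.29). chr12:6808879-6810712 had 23.9, 20.6 and 19.1 against 39.0, 36.2 and 42.9 (0.89), and chr6:34432959-34434961 had 9.66, 9.63 and 12.7 against 22.6, 21.8 and 27.4 (1.17). H3K27ac overlapped between groups at the first and second of these and was under 10 CPM in all 6 libraries of each.

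The remaining higher members named by rank of p were chr3:169529342-169531064, chr11:20690326-20692220 and chr2:131512446-131514566, with log2 fold changes of 0.99, 1.05 and 0.66. Each kept its call in 3 of the 6 fits without a library. chr11:20690326-20692220 gained H3K4me3, from 10.9, 12.7 and 15.0 to 31.6, 23.4 and 24.8, with H3K27ac between 0 and 2.17 in all 6 libraries. chr3:169529342-169531064 had 8.62, 0.734 and 13.9 of H3K27ac in control and 23.8, 22.4 and 16.6 in knockdown, which did not pass. The other 5 called higher members were chr6:33047960-33049431, chr19:10530111-10532123, chr11:64525997-64528439, chr5:16178872-16180942 and chr1:89663378-89665178, with log2 fold changes from 0.75 to 1.13. chr11:64525997-64528439 is also among the 3 members with the highest H3K4me1 over H3K4me3, and its H3K4me3 went from 9.49, 9.34 and 13.4 to 22.0, 20.2 and 22.1.

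The 7 lower members had less H3K4me3 in every knockdown library than in any control library. The steepest was chr12:108990427-108992387, with 16, 19.3 and 9.46 in control and 6.44, 3.03 and 2.64 in knockdown (log2 fold change -1.90, SE 0.36, adjusted p = 0.0324). chr5:169930701-169932473 had 19.0, 7.95 and 11.4 in control and 3.36, 3.82 and 3.72 in knockdown (-1.81, SE 0.31, adjusted p = 0.0110). chr4:151506515-151507808 had 13.3, 13.0 and 9.37 in control and 2.24, 3.74 and 4.88 in knockdown (-1.71, SE 0.30, adjusted p = 0.0117). These 3 fell from a control level near the floor of the rule. So did chr5:148032871-148034489 and chr4:16898353-16900406, at 15.2 and 14.1 CPM in control.

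The strongest of the lower members was chr13:33858519-33860652, which had 60.8, 55.7 and 67.0 in control and 45.0, 38.3 and 45.2 in knockdown (-0.51, SE 0.11, adjusted p = 0.0301). Its H3K27ac was 50.3, 41.8 and 49.9 in control and 29.9, 39.4 and 30.8 in knockdown, apart but not past the test (adjusted p = 0.524). The other 3 were chr5:148032871-148034489 (-1.25), chr4:16898353-16900406 (-1.10) and chr8:20159808-20161873 (-0.83). Calls for 7 of these 7 were lost without the first control library and without the second knockdown library.

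**Figure D4:**
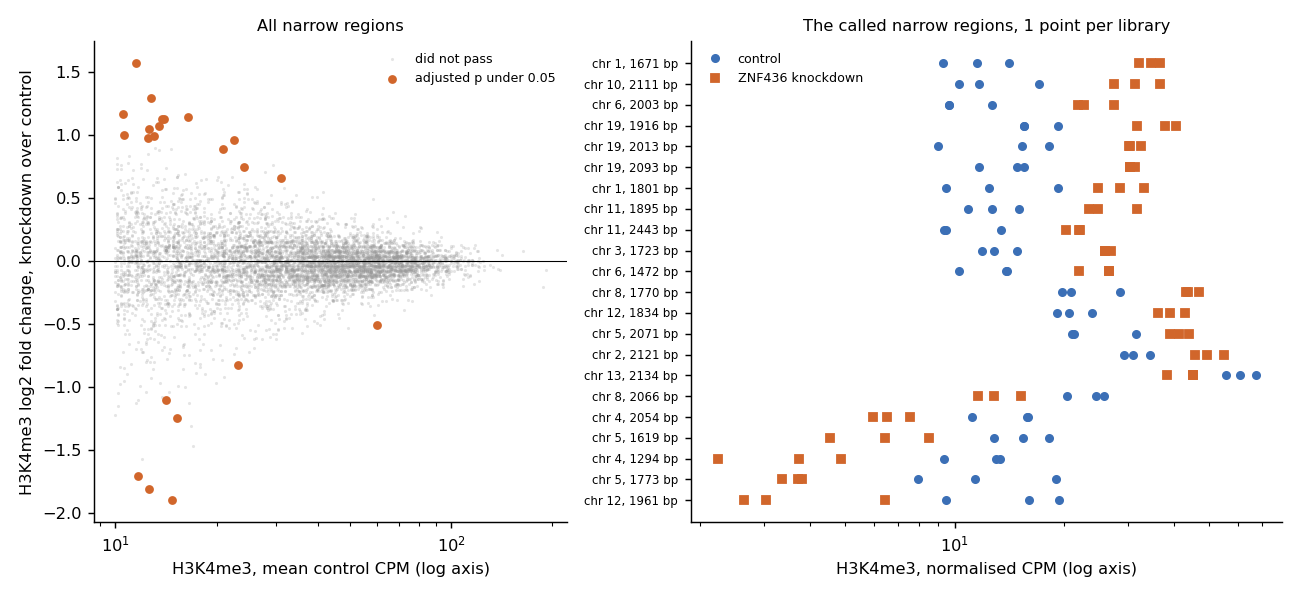
Left, mean control H3K4me3 in CPM (x, log axis) against the log2 fold change of H3K4me3, knockdown over control (y), for 6656 narrow regions, orange for the 22 called. Right, normalised CPM of H3K4me3 (x, log axis) in each library for the 22 called regions, labelled by chromosome and width and ordered by fold change, with circles for control and squares for knockdown. The 15 higher regions have their squares to the right of their circles and the 7 lower regions to the left.

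By median the called members were weakly marked in control. Their control H3K4me3 had a median of 13.5 CPM (10.5 to 31.0) for those higher and 14.7 CPM (11.7 to 60.2) for those lower, against 35.5 CPM over all members. Control H3K4me3 entered both the rule and the fold change, so these levels are a description. In H3K27ac 12 of the 15 higher and 5 of the 7 lower members passed the filter on low counts, and in H3K4me1 15 and 6 did. None of them passed the test in either mark. chr8:12457691-12459460, with 8, 8 and 4 H3K27ac counts in control and 63, 57 and 48 in knockdown, and chr6:33047960-33049431, with 4, 4 and 4 against 28, 29 and 26, passed the filter through the knockdown libraries alone. No tally of directions is therefore drawn from the members that passed. In bulk libraries, fewer marked cells and less mark per cell cannot be told apart.

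No member was called in H3K27ac. Of the 6656 members 5691 passed the filter on low counts, with 0 higher and 0 lower by edgeR (background 0.00813% and 0.00325% of 61484 tested regions). At an unadjusted p under 0.05, 146 members were higher (2.57%, background 5.91%) and 124 lower (2.18%, background 5.35%). DESeq2 called 2 higher and 1 lower, limma-voom 0 and 0, and without the third control library edgeR called 13 higher and 8 lower. The median log2 fold change over tested members was 0.02, and -0.02 when libraries were scaled by their totals alone.

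After chr8:12457691-12459460 the smallest p for higher H3K27ac belonged to chr15:91474443-91476777 and chr6:33047960-33049431. chr15:91474443-91476777 had 11.7, 5.87 and 6.61 in control and 31.3, 22.7 and 30.2 in knockdown (log2 difference 1.79, adjusted p = 0.117), while its H3K4me3 overlapped between groups. chr6:33047960-33049431, one of the called higher members in H3K4me3, had 1.38, 1.47 and 1.47 of H3K27ac in control and 9.52, 11.0 and 8.01 in knockdown (2.69, adjusted p = 0.148). On the low side stood chr8:67624161-67626548, with 29.0, 32.7 and 18.7 in control and 11.2, 8.33 and 5.24 in knockdown (-1.70, adjusted p = 0.134), then chr12:56623926-56625911 (-1.60) and chr1:199996278-199997324 (-1.73). In each of these 5 the groups did not overlap and the test was not passed. They were named for a small p, so groups being apart adds nothing further. Among tested members the groups were apart at 401 on the higher side (7.05%, wide regions 9.26%). On the lower side they were apart at 349 (6.13%, wide regions 6.59%). chr15:91474443-91476777 passed under 3 alternatives and chr8:67624161-67626548 under 2. DESeq2 and the fit without the third control library were among them for both.

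No member was called in H3K4me1 either, and the members leaned slightly upward. Of 5983 tested members 0 were higher and 0 lower by edgeR (background 0% in each direction of 85815 tested regions), DESeq2 and limma-voom also called 0, and without the third control library edgeR called 4 higher and 5 lower. At an unadjusted p under 0.05, 130 members were higher (2.17%, background 4.91%) and 29 lower (0.485%, background 5.58%). The groups did not overlap at 484 members on the higher side (8.09%, wide regions 8.37%). On the lower side they did not overlap at 187 (3.13%, wide regions 5.13%). The median log2 fold change was 0.12 over tested members, 0.04 over tested wide regions and -0.03 over all tested regions. Scaled by library totals alone it was 0.17 over members and 0.02 over all tested regions.

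The smallest p for higher H3K4me1 belonged to chr7:140713436-140715497, with 3.15, 2.93 and 0.520 in control and 8.30, 8.06 and 8.51 in knockdown (log2 difference 1.88, adjusted p = 0.241). chr13:37247744-37249204 (1.42) and chrX:84258129-84260118 (1.75) followed. chr7:140713436-140715497 rests on 14, 12 and 2 counts in control and 32, 33 and 41 in knockdown. chrX:84258129-84260118 rests on 12, 7 and 9 against 38, 23 and 36. Both needed knockdown libraries to pass the filter on low counts, which favours higher knockdown values, so their values support nothing further. On the low side were chr10:75670015-75671839 (-1.32), chr3:120399207-120401557 (-1.26) and chr7:100874546-100876350 (-0.91). At chr7:100874546-100876350 H3K27ac was also apart, with 24.8, 26.4 and 11.0 in control and 10.9, 10.2 and 8.01 in knockdown. None of these 6 passed the test, and each of the 3 lower ones passed without the third control library.

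The share of each library that fell in the members gave 1 value per library. For H3K4me1 it was 3.63 ± 0.122% (SD, n = 3) in control, from 3.55 to 3.77%, and 4.05 ± 0.202% (n = 3) in knockdown, from 3.89 to 4.28%, so that the groups did not overlap. The exact two-sided permutation test gave p = 0.1, the smallest that 3 libraries against 3 allow, and 0.200 after adjustment over the shares of H3K27ac and H3K4me1. The wide regions held 13.8% and 14.0% of H3K4me1 counts (exact permutation p = 0.5). The narrow-minus-wide difference in H3K4me1 was -0.56 ± 0.03 in control and -0.48 ± 0.05 in knockdown (exact permutation p = 0.1). Regions with no count made up 22.9 to 25.4% of all regions in the control H3K4me1 libraries and 19.6 to 21.9% in the knockdown libraries, and the part of this in the share was not tested.

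For H3K27ac the members held 8.0 ± 0.509% in control and 8.12 ± 0.337% in knockdown, with overlapping groups (exact permutation p = 0.600). H3K4me3 and H3K9me3 chose the members and are given without a test. The members held 26.3 ± 0.311% of H3K4me3 counts in control and 26.0 ± 0.135% in knockdown, while the wide regions held 66.9% in both. The members held 1.16 ± 0.302% of H3K9me3 counts in control and 1.43 ± 0.155% in knockdown, again overlapping. The wide regions held 1.87% and 2.65%, also with overlapping groups.

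**Figure D5:**
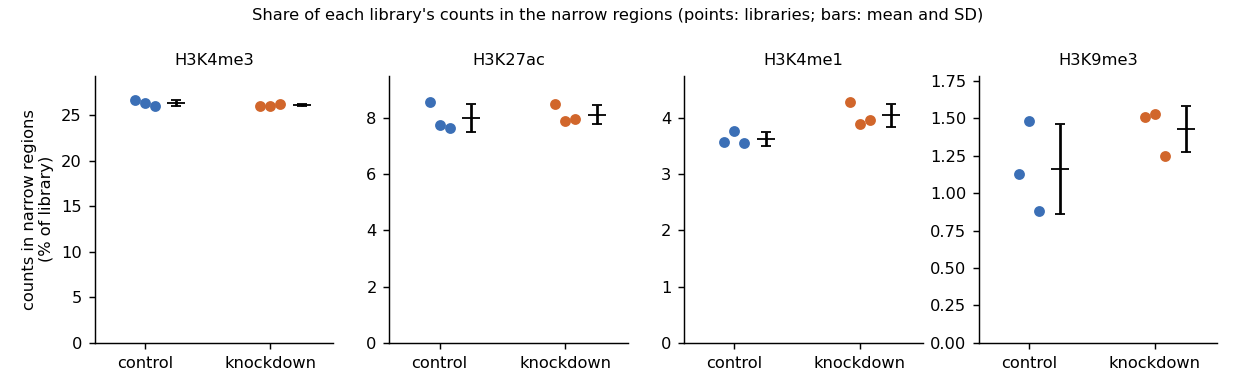
Share of each library's counts that fell in the 6656 narrow regions (y, % of library, starting at 0, a separate scale in each panel) for control and ZNF436 knockdown, 1 point per library, with the mean and SD of 3 libraries beside the points. The H3K4me1 points span 3.55 to 3.77% in control and 3.89 to 4.28% in knockdown, and those of the other marks overlap.

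H3K9me3 was too sparse to test at most members. The filter passed 515 of the 6656, and 214 members had 0 counts in all 3 control libraries. Of the 515, 0 were called higher and 0 lower by edgeR (background 0.00654% and 0.00327% of 30565 tested regions) and limma-voom called 0. Without the second control library edgeR called 1 higher member. At an unadjusted p under 0.05, 17 were higher (3.30%, background 3.99%) and 2 lower (0.388%, background 4.32%). The median log2 fold change was 0.24 over tested members, 0.58 over tested wide regions and 0.01 over all tested regions. The ceiling on control H3K9me3 chose the members, so these counts and fold changes are a description and are not independent of the choice.

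The smallest p for higher H3K9me3 belonged to chr1:36172627-36174577, with 7.67, 5.91 and 4.33 in control and 14.9, 16.5 and 28.8 in knockdown (log2 difference 1.75, adjusted p = 0.200). chr17:73083265-73085731 went from 0.959, 0 and 0.866 to 11.4, 5.82 and 8.47 (adjusted p = 0.211), where its H3K4me3 was 42.6, 46.4 and 32.5 in control and 23.7, 32.9 and 30.1 in knockdown. chr19:51142202-51143574 went from 1.92, 1.07 and 0 to 12.6, 7.27 and 5.93 (adjusted p = 0.276), and its H3K4me3 from 16.8, 16.4 and 17.0 to 9.71, 11.8 and 8.35. chr17:73083265-73085731 rests on 2, 0 and 2 counts in control and 20, 12 and 20 in knockdown, and chr19:51142202-51143574 on 4, 2 and 0 against 22, 15 and 14. Both passed the filter through the knockdown libraries alone and so had to differ, and their values support nothing further. chr1:36172627-36174577 rests on 16, 11 and 10 counts against 26, 34 and 68, and it too needed knockdown libraries to pass. At each of the 3 regions the H3K9me3 groups did not overlap, and in the last the H3K4me3 groups did not either. Among the 515 tested members the H3K9me3 groups were apart at 41 on the higher side (7.96%, wide regions 18.2%). On the lower side they were apart at 9 (1.75%, wide regions 1.06%). On the low side were chr19:52390356-52391773, chr19:57988081-57989134 and chrX:73832713-73835091, with control libraries between 5.20 and 14.0 and knockdown libraries between 0 and 5.82. The first rests on 28, 17 and 12 counts in control and 0, 2 and 12 in knockdown. The second rests on 25, 22 and 23 against 3, 12 and 9, and the third on 13, 26 and 21 against 8, 10 and 8. All 3 passed the filter through their control libraries, which favours lower knockdown values, so these values support nothing further. No member named for H3K9me3 passed the test in any mark.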

How the data were processed

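Each deposited file holds, for 1 library, the authors' raw counts over 153244 regions shared by all libraries. Per the submitters' processing notes the tools were deepTools 3.5.4, Bowtie2 2.4.5 and bedtools 2.30.0 and the build was hg19, with no role stated. The sources used here do not give how reads were filtered or regions drawn. Between 51.9 and 65.9% of the counts above 0 were even. CPM used library totals. Each mark was fitted on its 6 libraries over all regions passing filterByExpr, with TMM, glmQLFit (robust) and glmQLFTest of edgeR 4.0.16 and Benjamini-Hochberg adjustment. DESeq2 1.42.0, limma 3.58.1 (voom), RLE or total scaling, other filters, a replicate block, each library left out and other rule limits were the alternatives. Scripts were tested on simulated data. Single values were compared by exact permutation (scipy 1.17.1).

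Members and named regions were chosen with earlier results of these data known. Named were, per mark, up to 10 called members in each direction by p with groups apart (or, with fewer than 5, the 3 smallest p in each direction), those strongest in each mark, those at the limits and the largest groups. The other 5 called higher members fall outside this rule.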

Additional observations from a re-analysis of the deposited data

How the results depend on the processing

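For H3K4me3 the counts of members called higher and lower were 15 and 7. They were 54 and 39 with DESeq2, 85 and 79 with no filter, 8 and 4 among members under 2000 bp and 4 and 2 among members with 20 CPM or more (fewer members), and 2 lower with limma-voom. Leaving out 1 library gave 3 to 95 higher and 0 to 60 lower. For H3K27ac (0 and 0) DESeq2 gave 2 and 1, no filter 2 higher, the strict filter 1 higher, and leaving out 1 library 0 to 13 higher and 0 to 8 lower. For H3K4me1 leaving out 1 library gave 0 to 4 higher and 0 to 5 lower, and for H3K9me3 0 to 1 higher. The causes were not tested, beyond the smaller sets named. The rise in the H3K4me1 share was 0.415 percentage points, and 0.179 for members under 2000 bp, a set of fewer regions. The strict filter left no H3K9me3 member and DESeq2 gave none an adjusted p. Replicate numbers did not pair libraries: same-numbered libraries correlated in their deviations at -0.098 to 0.064, and 0, 1, 1 and 2 of 3 numbers fitted best with their own number for H3K4me3, H3K27ac, H3K4me1 and H3K9me3. With the replicate number as a block the H3K4me3 counts were 19 and 6, and H3K27ac had 1 higher member. The narrow-minus-wide differences kept their direction under each of 11 alternatives run per mark, and without 1 library they ran from -0.85 to -0.81 for H3K27ac and from -0.54 to -0.51 for H3K4me1. With 5 libraries the exact test cannot pass 0.05. H3K9me3, H3K4me1 and H3K27ac are limited by depth, at medians of 2 to 4, 18 to 25 and 26 to 32 counts per member and library.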
